A study of Mus musculus with 20 samples.

Results

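The vascular endothelial growth factor (VEGF) system of the mouse retina was followed through 9 genes, 4 ligands (Vegfa, Vegfb, Vegfc and Pgf), 3 receptor tyrosine kinases (Flt1, Kdr and Flt4) and 2 coreceptors (Nrp1 and Nrp2). They were taken by gene symbol, with no use of their values, from tables of 19368 genes (oxygen-induced retinopathy, OIR) and 19102 genes (eye injection). All 9 were listed in both, and all 9 passed the filter on low values, a mean above 0.1 fragments per kilobase of transcript scaled to the size of the library (FPKM, a level per length). Bulk RNA-Seq had been carried out on whole retinas of mice on the C57BL/6J background, both sexes used, in 4 groups of 5 libraries. The Atf6+/+ OIR and Atf6-/- OIR groups had been kept in 75% oxygen from postnatal day (P) 7 to P12, were then returned to room air, and were collected at P17. The Atf6-/- allele carries a premature stop codon in exon IV. The other groups were wild-type mice that received 1 μL into the vitreous at P30, with collection after 24 h and no oxygen treatment. The Ceapin-A7 group received 10 μM Ceapin-A7, a small molecule that blocks activation of ATF6, in saline with a trace of solvent. The PBS group, as the labels name it, received saline with the solvent. By the methods of the study the solvent was more concentrated for PBS than for Ceapin-A7. Drug and solvent level therefore differ together and cannot be told apart. No group without injection or oxygen was analysed here. Replicate libraries were taken as separate retina samples. In the injected groups both eyes of each animal had received the same injection, and no label names the animal behind each library. Libraries of a group may therefore share an animal, and p-values measure the spread between these samples, not between animals.

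VEGF-A is made by retinal glia and neurons when oxygen is low, and it acts on endothelial cells through KDR (VEGF receptor 2), the main signalling receptor for vessel growth. FLT1 (VEGF receptor 1) binds VEGF-A, VEGF-B and placental growth factor (PGF) and largely acts as a decoy that limits the VEGF-A reaching KDR. FLT4 (VEGF receptor 3) binds VEGF-C and marks sprouting and lymphatic endothelium. The neuropilins NRP1 and NRP2 bind VEGF isoforms and class 3 semaphorins and strengthen receptor signalling. In OIR, oxygen prunes the growing retinal vessels, and the return to room air leaves the retina hypoxic and drives tufts of new vessels.

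Atf6 itself was listed at 14.6 to 16.1 FPKM in the Atf6+/+ OIR libraries and at 13.6 to 16.8 FPKM in the Atf6-/- OIR libraries (log2 difference 0.03, adjusted p = 0.827 from limma), and a stop codon need not change the amount of RNA, so this level does not check the genotype labels. The depth of each library relative to the others of its experiment was taken from the smallest increments of low FPKM. It was 1.0 for every library except Atf6-/- OIR replicate 4 (0.945) and Ceapin-A7 replicate 3 (0.667). This rests on 20 to 34 genes a library and on values of 2 decimals, so it is coarse and can miss moderate differences. The 2 experiments were not set against each other. Markers of tissue next to the retina varied widely, and all 8 lens markers and 7 retinal pigment epithelium markers were above 0 in at least 1 library of every group. The summed lens markers ran from 2.66 to 398 FPKM in the Atf6+/+ OIR group, from 1.85 to 3.68 in Atf6-/- OIR, from 6.67 to 4606 in PBS and from 74.3 to 8286 in Ceapin-A7, and the summed pigment epithelium markers from 13.2 to 87.5, 49.0 to 273, 112 to 232 and 87.1 to 176 FPKM. Their part in the results was not tested. Scaling without these genes changed no call of the 9 genes. The scaling factor is a median over all genes, which leaving out so few can hardly move, so this does not show their part. Of all the cell type lists, the rod photoreceptor markers had the highest sum in each of the 4 groups.

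The study acts on ATF6, a transcription factor of the unfolded protein response, so the 250 bases before the annotated starts of the 9 genes (RefSeq, GRCm38.p6, a build other than that of the files) were searched on both strands. The letters were those of the endoplasmic reticulum stress response elements that ATF6 binds (CCAAT and CCACG 9 bases apart, or ATTGG and CCACG 1 base apart), the unfolded protein response element TGACGTGG, the cyclic AMP response element TGACGTCA, and the cores of the hypoxia response element (ACGTG and GCGTG). TGACGTGG contains ACGTG, so a match to the first is also a match to the second. All 9 genes had a window, with 11 windows in all because Vegfa and Pgf have 2 starts each. Neither of the stress response elements was found in any of them, while 0.113% and 0.0304% of all 32851 promoter windows hold one. The windows with matches longer than a hypoxia core, and those of Vegfa and Kdr for comparison, are shown with every match in capitals.

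Vegfa, upstream start, chr17:46032378-46032627, minus strand: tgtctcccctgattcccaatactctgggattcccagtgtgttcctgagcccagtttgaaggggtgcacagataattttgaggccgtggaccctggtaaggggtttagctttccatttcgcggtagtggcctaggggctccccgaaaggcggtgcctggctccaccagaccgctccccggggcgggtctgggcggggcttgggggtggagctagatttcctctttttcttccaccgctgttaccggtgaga
Vegfa, downstream start, chr17:46025164-46025413, minus strand: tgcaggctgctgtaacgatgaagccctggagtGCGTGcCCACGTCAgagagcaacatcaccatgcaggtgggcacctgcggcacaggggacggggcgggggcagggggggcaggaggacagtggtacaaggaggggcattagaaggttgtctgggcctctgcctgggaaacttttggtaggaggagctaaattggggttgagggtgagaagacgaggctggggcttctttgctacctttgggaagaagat
Flt1, chr5:147726012-147726261, minus strand: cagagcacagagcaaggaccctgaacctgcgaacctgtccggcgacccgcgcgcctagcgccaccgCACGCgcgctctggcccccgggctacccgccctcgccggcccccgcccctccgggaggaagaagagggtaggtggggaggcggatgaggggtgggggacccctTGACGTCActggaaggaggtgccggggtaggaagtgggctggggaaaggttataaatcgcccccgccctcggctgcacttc
Kdr, chr5:75978456-75978705, minus strand: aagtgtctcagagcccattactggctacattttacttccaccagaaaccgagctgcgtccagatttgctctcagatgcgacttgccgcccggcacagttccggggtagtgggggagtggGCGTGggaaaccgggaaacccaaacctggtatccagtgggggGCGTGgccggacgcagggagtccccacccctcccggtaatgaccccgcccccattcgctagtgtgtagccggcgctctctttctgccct

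The first Vegfa window held no match. The second, before a start further along the gene, held GCGTG and, 212 bases before that start, CCACGTCA. The latter is TGACGTGG read on the other strand (0.563% of all windows hold it). This window lies inside the gene, downstream of the upstream start, so its matches may be transcribed gene sequence rather than promoter. The Flt1 window held TGACGTCA 81 bases before the start (1.55% of all windows) and GCGTG on the other strand. The Kdr window held GCGTG at 131 and 89 bases before the start. GCGTG was also present before Vegfb, Nrp2 and Nrp1 and in the first window of Pgf, and not in those of Vegfc and Flt4, against 28.2% of all windows for GCGTG and 16.6% for ACGTG. A match is a description of letters, and windows without a match say nothing about binding elsewhere.

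Vegfa, Pgf, Flt4 and Nrp1 were higher in the Atf6+/+ OIR group than in the PBS group, with log2 differences from 0.70 to 1.63, whereas Vegfb, Vegfc, Flt1, Kdr and Nrp2 differed by -0.20 to 0.12. Age, oxygen history, injection and experiment all differ between Atf6+/+ OIR and PBS and cannot be told apart, so this contrast is a difference of levels only. In it, 4 of the 9 genes were called (Vegfa, Pgf, Flt4 and Nrp1, all higher in OIR), in a fit in which 59% of the 15628 genes tested were called, 29.7% higher and 29.3% lower. The share of the 9 called in either direction is therefore not above that of all genes. The share called higher, 4 of 9, is above the 29.7% of all genes, and this difference was not tested. Levels came from whole retina, where more cells of a type and more RNA per cell cannot be told apart.

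**Figure D1:**
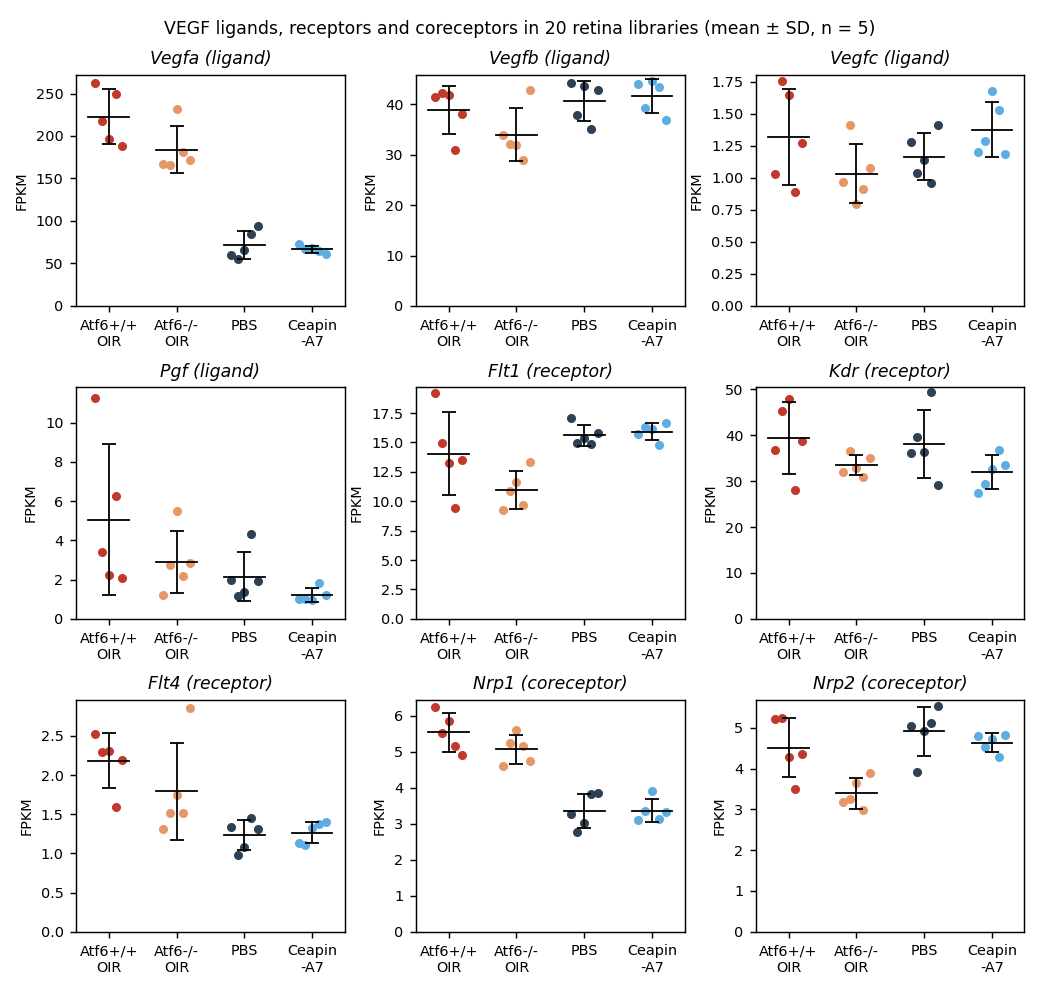
FPKM (y axis, from 0, a separate scale for each gene) of the 9 genes in 20 libraries by group, with each point a library and bars for the mean ± SD (n = 5). Vegfa, Flt4 and Nrp1 lie higher in all 5 Atf6+/+ OIR libraries than in all 5 PBS libraries, whereas Flt1, Kdr, Vegfb, Vegfc and Nrp2 overlap.

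Among the ligands, Vegfa was the most abundant in every library. It was listed at 261.97, 217.24, 196.61, 249.99 and 188.45 FPKM in Atf6+/+ OIR and at 60.51, 54.9, 66.06, 84.16 and 94.12 FPKM in PBS. The groups did not overlap, as for 41.3% of all genes tested, and the lowest OIR library was above the highest PBS library. Vegfa was 3.1-fold higher (log2 difference 1.63, standard error 0.12, 95% confidence interval 1.37 to 1.89, adjusted p = 1.38e-09 from limma), with an exact two-sided permutation p of 0.00794, the smallest that 5 against 5 libraries can give. In rank order of mean FPKM, Vegfa was gene 253 of 15722 above 0.1 FPKM in Atf6+/+ OIR and gene 1006 of 15384 in PBS.

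Pgf, a ligand of FLT1 alone among the receptor kinases, was low and variable. It was listed at 11.28, 3.43, 2.22, 6.28 and 2.1 FPKM in Atf6+/+ OIR and at 1.98, 1.17, 1.37, 4.31 and 1.92 FPKM in PBS, so the groups overlapped and replicates 1 and 4 carried most of the OIR mean. The log2 difference was 1.03 (standard error 0.42, adjusted p = 0.0398 from limma), the exact permutation p was 0.103, and without Atf6+/+ OIR replicate 1 the difference was 0.67 with an adjusted p of 0.143. That call was also lost without Atf6+/+ OIR replicate 4 and without PBS replicate 1, 2, 3 or 5.

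Vegfb and Vegfc did not pass the test between these groups. Vegfb, which binds FLT1 and is linked to fatty acid uptake, averaged 38.9 ± 4.72 FPKM in Atf6+/+ OIR and 40.7 ± 4 FPKM in PBS (SD, n = 5 each, log2 difference -0.08, adjusted p = 0.523 from limma). Vegfc, the ligand of FLT4, averaged 1.32 ± 0.379 and 1.17 ± 0.181 FPKM (SD, n = 5 each, log2 difference 0.12, adjusted p = 0.565 from limma). For Vegfb a correction for the GC content of the transcript gave -0.26 with an adjusted p of 0.00215 from limma, so its call depends on that setting.

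Since levels per length can be compared between genes, the ligands can be set beside each other. Vegfa made up 83.0 ± 2.2% of the summed FPKM of the 4 ligands in Atf6+/+ OIR and 82.7 ± 2.84% in Atf6-/- OIR, but 61.5 ± 5.43% in PBS and 60.1 ± 1.57% in Ceapin-A7 (SD, n = 5 each). The lowest share in either OIR group was 78.6%, and the highest in either injected group 67.6%. Vegfb took most of the rest, at 14.7% in Atf6+/+ OIR and 35.7% in PBS on average, with Pgf between 1.09% and 1.82% and Vegfc between 0.478% and 1.24% as group means.

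**Figure D2:**
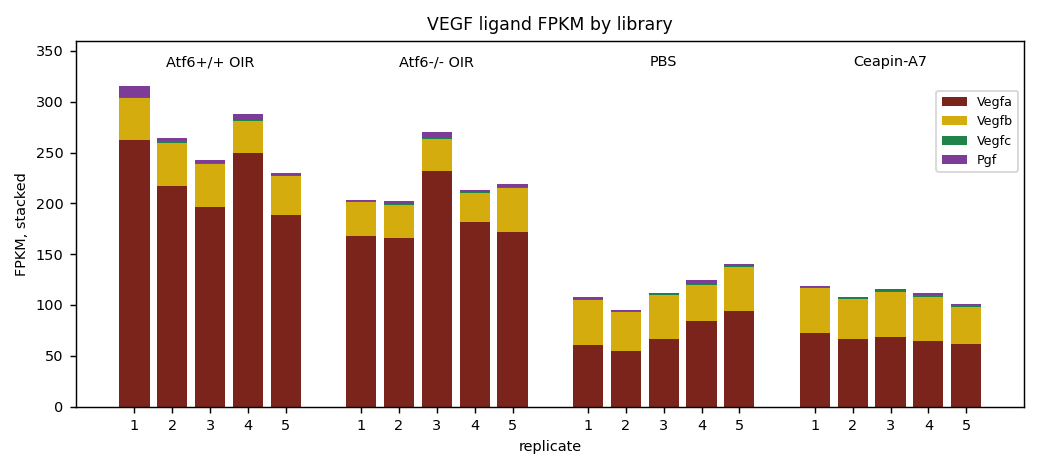
Stacked FPKM of the 4 ligands (y axis) in each library (x axis, replicate number within a group). The Vegfa segment is 166 FPKM or more in the 10 OIR libraries and 94.1 FPKM or less in the 10 injected libraries, while the Vegfb segment lies between 29.1 and 44.7 FPKM in all 20.

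Of the receptors, only Flt4 was called between Atf6+/+ OIR and PBS in the main analysis. Flt4 was listed at 2.52, 2.3, 2.31, 1.59 and 2.19 FPKM in Atf6+/+ OIR and at 1.33, 0.98, 1.08, 1.45 and 1.31 FPKM in PBS, without overlap. It was 1.7-fold higher (log2 difference 0.76, standard error 0.17, adjusted p = 7.09e-04 from limma, exact permutation p = 0.00794). Prox1, Lyve1 and Pdpn, which mark lymphatic endothelium among other cells, were not called higher, and Lyve1 and Prox1 were called lower (log2 differences -0.37 and -0.22, adjusted p = 0.00608 and 0.0125 from limma).

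Neither Flt1 nor Kdr passed the test between these groups. Flt1 was listed at 19.19, 14.92, 13.25, 9.42 and 13.47 FPKM in Atf6+/+ OIR and between 14.8 and 17.1 FPKM in PBS. The OIR libraries scattered around the PBS range, with 3 below it and 1 above (log2 difference -0.20, 95% confidence interval -0.48 to 0.08, adjusted p = 0.205 from limma). Without Atf6+/+ OIR replicate 1, the highest, the difference was -0.33 with an adjusted p of 0.0232. Kdr was listed at 36.86, 45.27, 47.91, 27.98 and 38.74 FPKM in Atf6+/+ OIR and at 36.17, 39.67, 36.4, 49.35 and 29.11 FPKM in PBS, with nearly the same range (log2 difference 0.03, 95% confidence interval -0.25 to 0.30, adjusted p = 0.877 from limma). The interval leaves room for a Kdr level 1.23-fold higher or 1.19-fold lower in OIR.

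The coreceptors went apart. Nrp1 was listed at 6.25, 5.51, 5.86, 5.16 and 4.9 FPKM in Atf6+/+ OIR and at 3.28, 2.76, 3.03, 3.82 and 3.85 FPKM in PBS, without overlap. It was 1.62-fold higher (log2 difference 0.70, standard error 0.09, adjusted p = 1.52e-06 from limma, exact permutation p = 0.00794). Nrp2 averaged 4.52 ± 0.731 and 4.92 ± 0.599 FPKM (SD, n = 5 each) and did not pass (log2 difference -0.14, adjusted p = 0.285 from limma).

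Endothelial markers were mostly called higher in this contrast. Of 12 endothelial markers, 11 were called higher in Atf6+/+ OIR and none lower, with a median log2 difference of 1.69 beside 0.01 for all genes tested. Pecam1, a junction protein of endothelium, rose from 4.70 ± 0.432 to 15.6 ± 2.63 FPKM, Icam2 from 1.08 ± 0.226 to 4.41 ± 0.611 and Emcn from 1.99 ± 0.524 to 11.3 ± 2.43 FPKM (SD, n = 5 each, adjusted p = 3.54e-10, 1.15e-09 and 1.63e-09 from limma). Mural cell markers, those of pericytes and smooth muscle, were called higher for 7 of 8, led by Rgs5 (4.61-fold). In each library the FPKM of a receptor was therefore set against the summed FPKM of the 12 endothelial markers, a ratio chosen after the values were seen. No member of the VEGF genes is in that marker list.

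**Figure D3:**
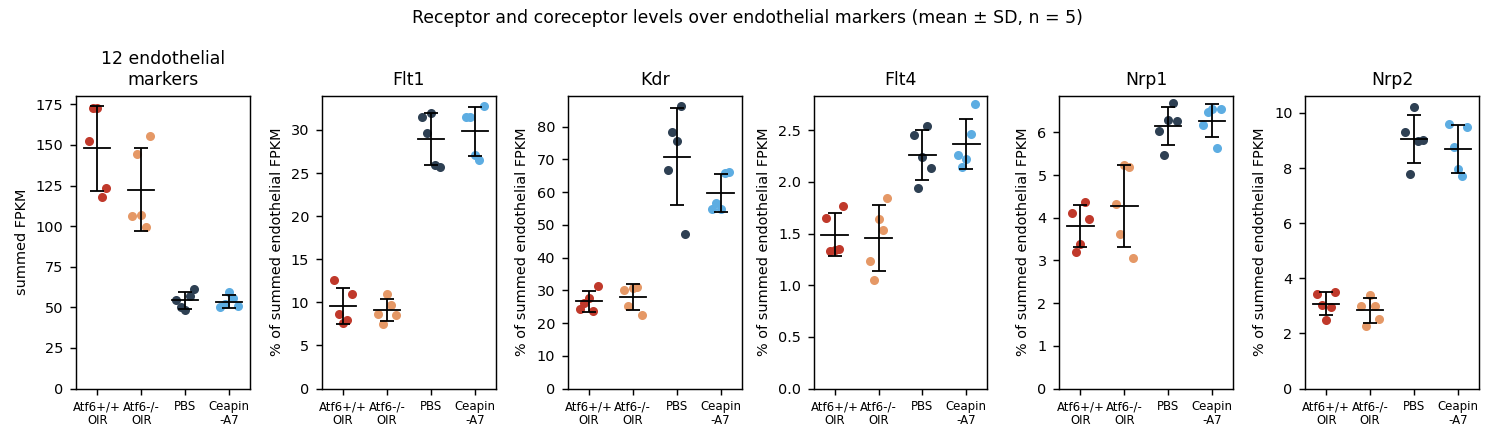
Summed FPKM of 12 endothelial markers (left) and each receptor or coreceptor as a percentage of that sum (right panels), by group, with a point per library and bars for the mean ± SD (n = 5). The marker sum is 118 to 173 FPKM in Atf6+/+ OIR and 48.2 to 61.5 FPKM in PBS, and it is the denominator of all 5 ratios. The ratios lie lower in every OIR library than in every injected library. Every OIR sum is above every injected sum, so a gene of equal level in all libraries would lie lower too.

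The ratio puts the receptor levels and the higher marker sum of OIR into a single number, and is given as a description with no test. Flt1 was 9.55 ± 2.12% of the marker sum in Atf6+/+ OIR and 29.0 ± 2.97% in PBS (SD, n = 5 each), 3.07-fold lower. Kdr was 26.6 ± 3.11% and 70.9 ± 14.9%, 2.62-fold lower, and Nrp2 3.08 ± 0.415% and 9.06 ± 0.876%, 2.95-fold lower. Flt4 and Nrp1, whose own levels were higher in OIR, were 1.52-fold and 1.62-fold lower by this ratio. The 5 ratios share 1 denominator, which itself did not overlap between the groups, so they are not separate observations. A gene with an equal level in all libraries would also be lower by this ratio. The level of Kdr itself differed by only 0.03 on the log2 scale. The share of all genes that lie lower by this ratio was not computed. Pecam1 alone as the denominator kept each ratio lower in OIR. These genes are also transcribed in retinal neurons and glia, which whole retina does not separate.

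In the same contrast the pathway lists were counted beside the shares of all genes, 29.7% called higher and 29.3% called lower. Of 10 genes that VEGF induces in endothelium, 6 were called higher in Atf6+/+ OIR and 1 lower (median log2 difference 1.89). Apln, a peptide of tip cells, rose from 0.538 ± 0.25 to 34.6 ± 17.5 FPKM, Esm1, another tip cell gene, from 0.07 ± 0.0828 to 4.00 ± 1.93 and Angpt2, a destabiliser of vessels, from 0.974 ± 0.221 to 14.2 ± 7.89 FPKM (SD, n = 5 each, adjusted p = 3.55e-11, 3.68e-09 and 6.66e-09 from limma). Among 35 tested genes of receptor signalling, 10 were called higher and 12 lower (median log2 difference 0.00), near the shares of all genes. Cdh5, the endothelial cadherin and also 1 of the 12 markers, rose 4.64-fold and Dab2, an endocytic adaptor, 3.63-fold, while Prkcb, a protein kinase C also found in neurons, fell to 0.776-fold. Among 13 tested genes of ligand processing and coreceptor ligands, 2 were called higher and 2 lower. The matrix protease inducer Bsg rose 1.8-fold, Plxnd1, a receptor for semaphorins, 2.57-fold, and its ligand Sema3e fell to 0.639-fold. Of 18 hypoxia response genes 12 were called higher and 3 lower (median 0.43), led by Adm, a vasoactive peptide (0.456 ± 0.259 to 16.2 ± 9.34 FPKM, SD, n = 5 each), Kdm3a and Ndrg1.

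**Figure D4:**
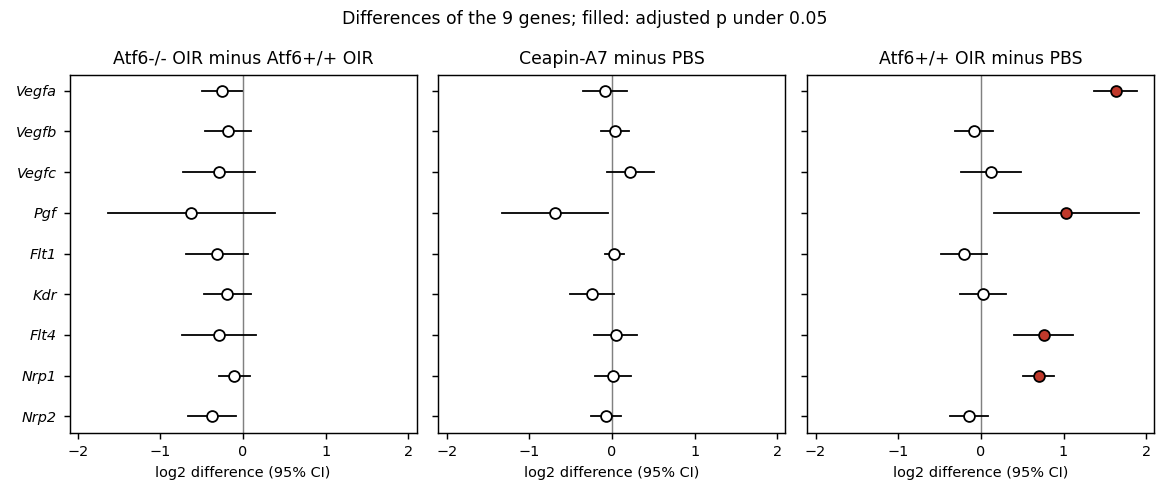
Log2 differences of the 9 genes (points) with 95% confidence intervals (lines) in 3 comparisons, on the log2(FPKM + 0.1) scale, with filled points for an adjusted p under 0.05. All 9 points lie below 0 for Atf6-/- OIR minus Atf6+/+ OIR with none filled, and the filled points are Vegfa, Pgf, Flt4 and Nrp1 for Atf6+/+ OIR minus PBS.

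Whether loss of ATF6 was accompanied by a change of VEGF genes was asked within OIR. All 9 genes had a lower mean in Atf6-/- OIR than in Atf6+/+ OIR, with log2 differences from -0.62 to -0.11 (median -0.29, beside 0.00 for all 15704 genes tested, of which 49.3% were below 0). None passed an adjusted p of 0.05, where 0.0318% of all genes did. With no adjustment, Vegfa and Nrp2 (2 of 9) were lower at p of 0.05 or less, beside 5.83% of all genes lower, 6.92% higher and 12.7% in either direction. None of the 9 was free of overlap between the genotypes, as 1.78% of all genes were. The 9 genes are measured in the same libraries, so their common direction is not 9 separate observations.

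Vegfa was listed at 167.46, 166.29, 231.66, 181.42 and 172.08 FPKM in Atf6-/- OIR. Of these, 4 lay below the lowest Atf6+/+ OIR library (188.45 FPKM) and replicate 3 lay within the Atf6+/+ range, so the groups overlapped. The means were 183.8 ± 27.4 and 222.9 ± 32.3 FPKM (SD, n = 5 each), a log2 difference of -0.26 (standard error 0.11, 95% confidence interval -0.50 to -0.02, adjusted p = 0.374 from limma, exact permutation p = 0.0714). The other ligands did not pass either. Pgf was listed at 1.22, 2.76, 5.49, 2.17 and 2.86 FPKM in Atf6-/- OIR (log2 difference -0.62, 95% confidence interval -1.63 to 0.38, adjusted p = 0.525), and without Atf6+/+ OIR replicate 1 its difference was -0.26. Vegfb averaged 34.0 ± 5.3 FPKM and Vegfc 1.03 ± 0.233 FPKM (SD, n = 5 each, log2 differences -0.18 and -0.29, adjusted p = 0.504 and 0.50 from limma).

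Nrp2 had the smallest p of the 9. It was listed at 5.21, 5.24, 4.29, 3.49 and 4.35 FPKM in Atf6+/+ OIR and at 3.17, 3.26, 3.65, 2.98 and 3.9 FPKM in Atf6-/- OIR. The groups overlapped through Atf6+/+ OIR replicate 4, and 3 Atf6-/- libraries lay below all Atf6+/+ libraries. The log2 difference was -0.38 (standard error 0.13, 95% confidence interval -0.66 to -0.09, adjusted p = 0.362 from limma, exact permutation p = 0.0397). Nrp1, at 4.6 to 5.59 FPKM in Atf6-/- OIR, had a log2 difference of -0.11 (adjusted p = 0.549).

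The receptor kinases gave values of the same size. Flt1 averaged 14.1 ± 3.52 FPKM in Atf6+/+ OIR and 11.0 ± 1.63 FPKM in Atf6-/- OIR (SD, n = 5 each, log2 difference -0.31, adjusted p = 0.434 from limma, exact permutation p = 0.167). Kdr averaged 39.4 ± 7.81 and 33.5 ± 2.23 FPKM (SD, n = 5 each, log2 difference -0.19, adjusted p = 0.496 from limma). Flt4 was listed at 1.31, 1.52, 1.75, 1.52 and 2.86 FPKM in Atf6-/- OIR, where replicate 5 was above every Atf6+/+ library (log2 difference -0.29, adjusted p = 0.504). Atf6+/+ OIR replicate 4 was the lowest of its group for Flt1, Kdr, Flt4, Nrp2, Vegfb and Vegfc but not for Vegfa. Without it, Flt1 differed by -0.46, Kdr by -0.32 and Nrp2 by -0.48, with an adjusted p of 0.156 for each, and without Atf6-/- OIR replicate 5 Flt4 differed by -0.48 (adjusted p = 0.105).

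Most vessel markers had lower means alongside these genes, with log2 differences below 0 for 10 of 12 endothelial and 8 of 8 mural markers. The summed endothelial markers ran from 118 to 173 FPKM in Atf6+/+ OIR and from 99.3 to 155 FPKM in Atf6-/- OIR, and the summed mural markers from 98.9 to 146 and from 81.7 to 102 FPKM. None of these markers was called. Before adjustment 5 of 12 endothelial and 4 of 8 mural markers were lower, among them Robo4, Emcn, Erg and Myh11, and none was higher. Beside them, 5.83% of all genes were lower and 6.92% higher. As a percentage of the endothelial sum the receptors overlapped between the genotypes, with Flt1 at 9.55 ± 2.12% in Atf6+/+ OIR and 9.09 ± 1.29% in Atf6-/- OIR and Kdr at 26.6 ± 3.11% and 28.0 ± 3.85% (SD, n = 5 each). The part of vessel content in the lower means was not tested further. In this comparison log2 differences fell with transcript GC content across all genes (Spearman rho = -0.465, genes not being replicates). A correction for it moved Vegfa from -0.26 to -0.20 (adjusted p = 0.556 from limma), and Vegfa was then no longer lower at an unadjusted p of 0.05, nor was it with the replicate number as a block. The correction moved Vegfb, the most GC-rich of the 9 at 61.9%, from -0.18 to -0.02 and left Nrp2, at 51%, at -0.38.

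Pathway genes around the 9 gave no call between the genotypes. The unadjusted counts stand beside 5.83% of all genes lower and 6.92% higher, and lists this short are not set apart from those shares. By unadjusted p, VEGF-induced endothelial genes counted 3 lower of 10 and none higher, with Esm1 at 4.00 ± 1.93 FPKM in Atf6+/+ OIR and 1.74 ± 0.92 in Atf6-/- OIR (SD, n = 5 each, adjusted p = 0.36 from limma), Apln at 34.6 and 18.3 FPKM and the protease Adamts1 at 10.4 and 7.20 FPKM as group means. Receptor signalling counted 4 lower and 1 higher of 35, with Hspb1, Nfatc1 and the adaptor Shb at log2 differences of -0.50, -0.63 and -0.50. Ligand processing and coreceptor ligands counted 1 lower, Plxnd1 (-0.56), and 1 higher, Sema3c (0.85), of 12, and Sema3e differed by 0.13. Hypoxia response genes counted 4 lower and 1 higher of 18, with the oxygen sensor Egln1 at -0.43, the glycolytic regulator Pfkfb3 at -0.42 and Hif1a at 0.18.

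Ceapin-A7 was compared with PBS to ask whether 24 h of chemical block of ATF6 in a normal mature retina changes the same genes. None of the 9 was called by limma, as none of the 15408 genes tested was (0%, with 1596 genes at p of 0.05 or less before adjustment). Among the VEGF genes, only Pgf reached that unadjusted threshold, beside 5.32% of all genes lower, 5.04% higher and 10.4% in either direction. No gene of the 9 was free of overlap, as 1.47% of all genes were. DESeq2 could not be run on FPKM, so no second tool was used here. The log2 differences were below 0 for 4 genes and above 0 for 5, and the median was 0.01.

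Pgf was listed at 0.99, 1.02, 0.94, 1.81 and 1.22 FPKM after Ceapin-A7 and at 1.98, 1.17, 1.37, 4.31 and 1.92 FPKM in PBS. Of the Ceapin-A7 libraries 3 lay below all PBS libraries, and the groups overlapped. The log2 difference was -0.69 (standard error 0.29, 95% confidence interval -1.33 to -0.04, adjusted p = 0.472 from limma, exact permutation p = 0.0635). Without PBS replicate 4, the highest library, it was -0.41.

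Vegfa was listed at 72.38, 66.5, 68, 64.52 and 61.58 FPKM after Ceapin-A7, all within the PBS range of 54.9 to 94.1 FPKM (log2 difference -0.08, 95% confidence interval -0.35 to 0.18, adjusted p = 0.81 from limma). The interval covers levels from 0.784 to 1.13 times that of PBS. PBS replicates 4 and 5, which held the highest Vegfa (84.16 and 94.12 FPKM), stood apart in other markers. Their summed Muller glia markers were 695.55 and 850.54 FPKM, where the other PBS libraries had 1167.91 to 1643.21 FPKM, and their summed rod markers were 13182 and 12386 FPKM, where the others had 16678 to 18507 FPKM. The part of this in the results was not tested. Without both libraries the log2 difference of Vegfa was 0.12, of the other sign (adjusted p = 0.99 from limma), that of Pgf -0.33 (unadjusted p = 0.167) and that of Kdr -0.25 (unadjusted p = 0.0139), each with an adjusted p of 0.99. In the contrast of Atf6+/+ OIR with PBS, leaving them out kept Vegfa, Pgf, Flt4 and Nrp1 called (log2 differences 1.84, 1.39, 0.85 and 0.82) and no other gene of the 9. Vegfb averaged 41.7 ± 3.44 FPKM and Vegfc 1.38 ± 0.217 FPKM (SD, n = 5 each, log2 differences 0.03 and 0.22, adjusted p = 0.879 and 0.539 from limma).

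Among the receptors, Kdr was listed at 27.41, 29.31, 32.68, 36.76 and 33.6 FPKM after Ceapin-A7, with 1 library below and none above the PBS range (log2 difference -0.24, 95% confidence interval -0.51 to 0.02, adjusted p = 0.492 from limma, exact permutation p = 0.127). Flt1 had the narrowest interval of the 9, at 15.9 ± 0.716 FPKM after Ceapin-A7 and 15.6 ± 0.897 FPKM in PBS (SD, n = 5 each, log2 difference 0.03, 95% confidence interval -0.09 to 0.14). That interval spans 0.941-fold to 1.1-fold. Flt4, Nrp1 and Nrp2 differed by 0.05, 0.01 and -0.07 on the log2 scale (adjusted p = 0.898, 0.97 and 0.739 from limma). The summed endothelial markers ran from 48.2 to 61.5 FPKM in PBS and from 50.0 to 59.5 FPKM after Ceapin-A7.

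The surrounding pathway lists had no call either. Their unadjusted counts stand beside 5.32% of all genes lower and 5.04% higher, and are not set apart from those shares. By unadjusted p, ligand processing and coreceptor ligands counted 2 lower of 13, Sema3f (66.8 ± 9.14 FPKM in PBS and 55.6 ± 3.43 FPKM after Ceapin-A7, SD, n = 5 each, adjusted p = 0.472 from limma) and Plxnd1, and Plxna2 differed by -0.16. Receptor signalling counted 2 lower, the focal adhesion protein Pxn (-0.25) and the docking protein Gab1 (-0.29), and 1 higher, Prkca (0.20), of 35. VEGF-induced endothelial genes counted 1 lower, Adamts1 (-0.70), and 1 higher, Esm1 (0.98, at 0.07 and 0.224 FPKM), of 9, and Nr4a1 differed by -0.33. No hypoxia response gene of 18 reached that threshold, and those nearest to it were Epas1, Ankrd37 and Egln1.

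The effects of the knockout and of Ceapin-A7 were compared in 1 fit of all 20 libraries. None of the 9 genes differed between them at an adjusted p under 0.05, where 0.032% of genes did. Vegfc had the smallest p, with a difference of -0.51 (95% confidence interval -1.02 to 0.00, unadjusted p = 0.0499, adjusted p = 0.542 from limma). Its estimates had opposite signs, -0.29 in the knockout and 0.22 after Ceapin-A7, and neither was called. Without adjustment 9.2% of all genes differed, 3.79% in that direction. Flt1 and Nrp2 followed at -0.34 and -0.30 (adjusted p = 0.586 and 0.568 from limma). For Vegfa the difference was -0.17 (95% confidence interval -0.54 to 0.19), so an unlike response of this size could not be told from none.

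By order of mean FPKM, Vegfa and Nrp1 ran Atf6+/+ OIR, Atf6-/- OIR and then the injected groups, and only the step between the OIR and injected groups was free of overlap (2.55-fold between Atf6-/- OIR and PBS for Vegfa, 1.51-fold between Atf6-/- OIR and Ceapin-A7 for Nrp1). For the other 7 genes every pair of neighbours in the order overlapped. Pgf and Flt4 were also highest in Atf6+/+ OIR, Kdr too, Nrp2 was highest in PBS, and Flt1, Vegfb and Vegfc were highest after Ceapin-A7. The ratio of Kdr to Flt1 was 2.88 ± 0.611 in Atf6+/+ OIR, 3.10 ± 0.358 in Atf6-/- OIR, 2.46 ± 0.57 in PBS and 2.01 ± 0.295 after Ceapin-A7 (SD, n = 5 each). The ratio of Vegfa to Flt1, ligand to decoy, was 16.7 ± 5.51, 16.99 ± 2.83, 4.62 ± 1.12 and 4.19 ± 0.334, and its lowest OIR library (12.9) was above its highest injected library (5.94).

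Genes that varied most like each of the 9 were sought across all 20 libraries, after the mean of each group was removed, among 12566 genes with a mean of at least 1 FPKM in each experiment. These Pearson correlations are descriptions, and libraries share scaling, depth and tissue composition. Vegfa varied most like Oxsr1 (r = 0.904), Lpar6 (0.873) and Rragd (0.866), each above 0.8 within either experiment. Pgf varied most like Sbno2 (0.874), Apold1 (0.862) and Socs3 (0.844), the last being an inhibitor of cytokine signalling. Vegfb lay nearest to Zfp651 (0.913), Cdk5r2 (0.908) and Lrfn1 (0.904), and Vegfc nearest to the endothelial tight junction gene Cldn5 (0.862), Il17d (0.85) and C130074G19Rik (0.832).

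For the receptors, Flt4 varied most like Tln1 (0.928), Gpc1 (0.926) and Notch1 (0.923), and Nrp2 like Kank2 (0.922), Lamc1 (0.913) and Trp53i11 (0.912). Nrp1 lay nearest to Ets1 (0.833), a transcription factor of endothelium among other cells, Map4k4 (0.805) and Btg2 (0.799), and Kdr nearest to Bdh1 (0.836), Sema3g (0.828) and Rbm38 (0.816). The genes most like Flt1 (Rnf165 at 0.906, Hivep3 at 0.898 and Arhgef7 at 0.897) were so in OIR alone, with r of 0.941, 0.937 and 0.954 there but 0.311, 0.202 and -0.06 in the injected libraries. Among the 9 genes themselves the closest pair was Flt1 and Nrp2 (r = 0.826, 0.936 in OIR and 0.323 in injected libraries), followed by Flt4 and Nrp2 (0.741). Many other genes were nearer, as Nrp2 ranked only 73 for Flt1 and 982 for Flt4 among all genes compared. Of the 9, Vegfa was closest to Pgf (0.666, rank 179 among all genes compared) and Nrp1 (0.643, rank 233), and its correlation with Kdr was -0.41.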

How the data were processed

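The authors isolated RNA from whole retinas without cornea and lens, made stranded mRNA libraries and read 100 bp from both ends of each fragment. According to the methods and the submitters' processing notes, reads were aligned to GRCm39 with HISAT2 (2.0.4), levels were estimated with RSEM (1.2.18) and DESeq2 (1.4.5) was used for their comparisons. The deposited values are FPKM per gene, which the authors gave to 2 decimals, in 4 tables of 5 libraries. FPKM hold no read counts, so no count model and no counting interval could be used, and precision comes from the spread of 5 libraries. FPKM summed to between 410599 and 456250 per library.

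Here FPKM were scaled by median-of-ratios factors (0.946 to 1.04), genes averaging over 0.1 FPKM were kept, and log2(FPKM + 0.1) was compared by limma (3.58.1, eBayes with trend, R 4.3.3), and Benjamini-Hochberg values were taken over all genes tested. An adjusted p under 0.05 was a call. Fold changes refer to log2(FPKM + 0.1) and understate those of low genes. Each experiment was fitted on its own 10 libraries. Atf6+/+ OIR against PBS, and the difference of the effects, were fitted on all 20. For single genes, all 252 arrangements of the libraries gave an exact two-sided permutation p. No sequencing batch is named in the sources used here. The fit was tested on simulated data.

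Genes named are the 9 genes, up to 3 genes with the smallest p in each of 15 lists and comparison, and the 3 genes most correlated with each of the 9. The members were taken by gene symbol and not by their values, but members, lists and tests were all chosen with earlier results of these data known. Other genes and the ratio to endothelial markers were chosen after seeing the values. Alternatives were other pseudocounts (1 and 0.01), filters, scalings (as deposited, equal sum, quantile, without lens and pigment epithelium genes), no trend, array weights, the replicate number as a block, a fit of all 20 libraries and leaving out each library. A correction for GC content (lowess, span 0.3, GRCm38 transcripts) was added after seeing the data, as was leaving out PBS replicates 4 and 5 together. Start windows came from RefSeq (GRCm38.p6).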

Additional observations from a re-analysis of the deposited data

Results flagged for a closer look

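In 36 groups of 5 libraries (9 genes in 4 groups), 3 had a highest library whose gap to the next one was more than 0.71 of the group's range, and chance gives about 1 in 20 such groups. Vegfa in Atf6-/- OIR replicate 3 was at 231.66 FPKM, with a gap of 0.769 of the range, where the other 4 libraries lay between 166.29 and 181.42 FPKM. The same library was highest of its group for Pgf and Nrp1. Without it the log2 difference of Vegfa to Atf6+/+ OIR was -0.34 (adjusted p = 0.504 from limma), the largest over all left-out libraries. The smallest, -0.19, came without Atf6+/+ OIR replicate 1 (unadjusted p = 0.0995 from limma). Array weights gave -0.14 (unadjusted p = 0.244 from limma). Pgf in PBS replicate 4 was at 4.31 FPKM (gap 0.742 of the range), and the next library was at 1.98 FPKM. Flt4 in Atf6-/- OIR replicate 5 was at 2.86 FPKM (gap 0.716 of the range) above the next at 1.75 FPKM, and that library also held the highest Vegfb, Flt1 and Nrp2 of its group.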

How the results depend on the processing

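Of 216 alternative values for the 9 genes between the OIR genotypes, 211 kept both direction and side of the threshold and none reversed. The other 5 came from array weights. Under these, Vegfb, Flt1, Kdr, Flt4 and Nrp2 were called lower (adjusted p = 0.0264 to 0.0425 from limma). In that fit 2772 of the 15704 genes tested were called, 1216 of them higher and the rest lower. After Ceapin-A7, 212 of 225 kept both and 13 reversed. Rescaling to the same sum gave -0.0038 for Vegfb, -0.0111 for Flt1 and -0.0250 for Nrp1, array weights -0.0229 for Vegfb, and leaving out PBS 4 and 5 together, chosen after seeing the data, 0.123 for Vegfa, -0.0246 for Vegfb and -0.0072 for Flt1. Leaving out 1 library moved Vegfa from -0.166 to 0.0137, Vegfb from -0.0229 to 0.0791, Flt4 from -0.0200 to 0.0982 and Nrp1 from -0.0451 to 0.0578, and gave values of the other sign, namely -0.0200 for Flt4 and -0.0451 for Nrp1 (PBS 2), -0.0162 for Nrp1 (PBS 3), -0.0229 for Vegfb (PBS 4), 0.0137 for Vegfa (PBS 5) and -0.0403 for Nrp1 (Ceapin-A7 3). Between Atf6+/+ OIR and PBS, 194 of 216 kept both. Kdr reversed to -0.0063 with the same sum and to -0.0311, -0.0466 and -0.0716 without Atf6+/+ OIR 2 or 3 or PBS 5, Vegfb to 0.0024 without Atf6+/+ OIR 4, (ranges over left-out libraries -0.0716 to 0.151 for Kdr and -0.145 to 0.0024 for Vegfb), and Vegfc to -0.142 with quantile normalization and -0.0065 with the GC correction, with or without the replicate block. Pgf lost its call in 11 of its 24 alternatives (adjusted p from 0.0115 to 0.143 over those leaving out a library). The causes were not tested.

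The count of all genes called between the OIR genotypes was 5, and 9 with no filter, 2772 with array weights, 11 in the fit of 20 libraries and 5 to 9 leaving out a library. At an unadjusted p of 0.05 or less it was 2002, 5750 with array weights, and 1091 to 4014 leaving out a library (3763 without Atf6+/+ OIR 4, 4014 without Atf6-/- OIR 5). The higher share of these was 54.3%, but 30.5% as deposited and 31% with the same sum. After Ceapin-A7 the called count was 0, and 1 in the fit of 20 libraries. The unadjusted count was 1596 and ran from 953 to 2532 leaving out a library (770 without both PBS 4 and 5), with 48.6% higher, or 26.8% with the same sum. Replicate numbers are shared by the labels, but same-numbered libraries correlated between -0.403 and 0.433 and do not pair. With the replicate block 5, 0 and 9107 genes were called in the 3 comparisons, and 3 in place of 5 for the difference of the effects. No call of the 9 genes changed with it. The 2 decimals of FPKM limit genes near 1 FPKM such as Vegfc, Flt4 and Pgf, and 5 libraries a group left 95% intervals of Pgf from 1.3-fold higher to 3.1-fold lower between the genotypes.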

Other observations

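Markers of other cells were counted between Atf6+/+ OIR and PBS, where 29.7% of all genes were called higher and 29.3% lower. Called higher in OIR were 6 of 7 microglia and macrophage markers (median log2 difference 1.12, with C1qa 3.03-fold, Csf1r 2.74-fold and Cx3cr1 2.1-fold), 3 of 3 astrocyte markers (Gfap 2.59-fold, S100b 2.47-fold, Pax2 2.05-fold) and 2 of 5 ganglion cell markers (Sncg and Thy1). Of 7 Muller glia markers 2 were called higher and 2 lower, with Abca8a at 0.44-fold. Of 7 rod markers 1 was called higher, and of 3 horizontal cell markers 1 lower. Of 7 pigment epithelium markers 5, and of 8 lens markers 2, were called lower. The counts for ganglion cells, Muller glia, rods, horizontal cells and lens rest on few genes and are not set apart from those shares. Between the OIR genotypes, and after Ceapin-A7, no marker was called in any of these lists. Before adjustment, 6 of 8 lens markers were lower (median log2 difference -3.18) and 5 of 7 pigment epithelium markers higher (median 1.67) in Atf6-/- OIR than in Atf6+/+ OIR, beside 5.83% of all genes lower and 6.92% higher. All 7 rod markers had differences above 0 there, with 2 of 7 higher before adjustment (median 0.10). The part of these tissues in the results of the 9 genes was not tested.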
